A study of Rattus norvegicus with 24 samples.

Results

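The 54 genes described here encode the machinery that carries newly made proteins into the endoplasmic reticulum (ER) and on to the Golgi. They were chosen by a rule on the symbol, with earlier results of these data known. The rule took genes read by a probe set of a single gene and left out Sec14 and Cops genes. The names taken start with Sec and 2 digits, Ssr, Spcs, Srp and a number, Srpr, Copa, Copb, Cope, Copg, Copz, Tmed or Lman. The genes taken are 54 of 13438 genes measured, each read from its brightest probe set on average. They held 80 of the 19068 single-gene probe sets.

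Liver RNA was measured on 24 arrays, 1 for each of 24 male Sprague Dawley rats aged 8 weeks, in 4 groups of 6. One pair of groups was necropsied 24 h after a single intragastric dose, which the labels give as the time of peak liver injury, and the other at 120 h, given as the time of its resolution. At each time 1 group had received 50 mg/kg ANIT (alpha-naphthylisothiocyanate, a compound that injures bile duct cells and hepatocytes) in corn oil, and the vehicle group corn oil alone. All 4 groups were fasted overnight before necropsy and were injected with bromodeoxyuridine shortly before it, so the vehicle rats shared both. The deposited values are log2 expression values, and a difference of 1 on that scale is a doubling. Each sample was a piece of whole liver, in which fewer cells of a type and less RNA per cell cannot be told apart.

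Proteins bound for secretion carry a signal peptide that the signal recognition particle (SRP) binds as it leaves the ribosome, and the SRP receptor docks the complex at the ER membrane. The chain then passes through the Sec61 channel, helped by the translocon-associated protein complex (TRAP), and signal peptidase removes the signal peptide. Folded cargo leaves in vesicles coated by COPII, and vesicles coated by COPI return receptors and escaped ER proteins from the Golgi, with p24 proteins and lectins serving as cargo receptors. Hepatocytes secrete most plasma proteins and use this route heavily. In mammalian cells several of these genes are known targets of the unfolded protein response factors XBP1 and ATF6. Some of the motifs searched for below are bound by these factors.

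Promoters were searched because motifs of those factors are known. RefSeq's table for the assembly GRCr8 holds a promoter of 300 bases, 250 before and 50 after the start, for 50 of the 54 genes (it has none for Sec24c, Sec24d, Sec61a1 and Sec61a2). Both strands were read. The ER stress element, taken as CCAAT and CCACG with 9 bases between them, was in 0 of the 50 promoters and in 22 of all 33469 (0.0657%), among them those of Hspa5 and Xbp1. The motif TGACGTGG was in 4 of the 50 (8.0%) and in 0.595% of all promoters, and TGACGTGA in 1 (2.0%) and in 0.4% of all. The 5 stretches that hold these longer motifs are shown so that the match can be read in place. They were picked after the search, since no promoter met the planned criterion, the ER stress element. Capitals mark the match, which on the gene's strand reads TGACGTGG, its reverse complement CCACGTCA or TGACGTGA.

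Srp19 (chr18:26205638-26205897, plus strand, 250 bases before to 10 after the start), the SRP subunit that prepares the particle's RNA for SRP54 binding: 
Srp19: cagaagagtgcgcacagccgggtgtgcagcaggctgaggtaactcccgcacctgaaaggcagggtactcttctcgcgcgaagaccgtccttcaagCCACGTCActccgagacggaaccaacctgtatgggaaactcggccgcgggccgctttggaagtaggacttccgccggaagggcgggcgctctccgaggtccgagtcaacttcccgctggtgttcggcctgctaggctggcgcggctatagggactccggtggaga
Copa (chr13:87078888-87078917, plus strand, bases 21 to 50 counted from the start), the alpha subunit of the COPI coat: 
Copa: ctggggtagcTGACGTGGagcctttgggag
Copb2 (chr8:108040437-108040696, plus strand, 250 bases before to 10 after the start), the beta' subunit of the COPI coat: 
Copb2: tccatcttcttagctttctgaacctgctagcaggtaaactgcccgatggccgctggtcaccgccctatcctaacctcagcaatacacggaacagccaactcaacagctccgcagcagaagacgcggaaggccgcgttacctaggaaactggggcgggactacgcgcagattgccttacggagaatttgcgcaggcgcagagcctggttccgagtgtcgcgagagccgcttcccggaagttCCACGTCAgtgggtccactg
Copb1 (chr1:177872831-177873090, minus strand, 250 bases before to 10 after the start), the beta subunit of the COPI coat: 
Copb1: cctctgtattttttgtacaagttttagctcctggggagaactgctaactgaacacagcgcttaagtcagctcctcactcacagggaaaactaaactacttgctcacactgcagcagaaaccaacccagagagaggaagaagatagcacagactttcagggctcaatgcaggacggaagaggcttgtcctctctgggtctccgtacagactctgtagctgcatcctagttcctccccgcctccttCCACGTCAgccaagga
Sec16a (chr3:29662310-29662569, minus strand, 250 bases before to 10 after the start), the scaffold of ER exit sites: 
Sec16a: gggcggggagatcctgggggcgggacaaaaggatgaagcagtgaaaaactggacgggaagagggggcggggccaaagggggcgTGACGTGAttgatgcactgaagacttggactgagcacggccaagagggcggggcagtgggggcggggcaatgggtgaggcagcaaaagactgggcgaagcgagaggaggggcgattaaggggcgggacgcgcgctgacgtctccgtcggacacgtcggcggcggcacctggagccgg

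In these stretches the match began 155 bases before the start in Srp19, 10 before it in Copb2, 6 before it in Copb1 and 167 before it in Sec16a, and at base 31 after it in Copa. All 5 genes were called higher at 24 h, by 0.87 in Srp19, 0.63 in Copa, 0.42 in Copb2, 0.36 in Copb1 and 0.68 in Sec16a on the log2 scale. So were 38 of all 50 genes with a promoter, so 5 of 5 does not set these genes apart. The shorter core ACGTG, which lies within both longer motifs and can overlap CCACG, was in 27 of the 50 promoters (54.0%), in 19.3% of all promoters and in 24.2% of those of measured genes. It was in 24 of the 38 genes called at 24 h (63.2%) and in 3 of the 12 not called (25%). CCACG was in 31 of the 50 (62.0%, against 31.6% of all and 44.6% of those of measured genes), and here the split ran the other way, with 57.9% of the called and 75% of the not called genes. CCAAT was in 22 (44.0%, against 37.5% of all), in 39.5% of the called and 58.3% of the not called genes. A match is a description of the letters in this window.

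At 24 h most of the machinery was higher in rats given ANIT. Of the 54 genes, 40 were called higher and 0 lower, where called means a Benjamini-Hochberg adjusted p under 0.05 in limma over all 13438 genes. Over all genes 12.9% were called higher and 18.2% were called in either direction, and the median change was 0.00 against 0.66 for the 54 genes. These genes are read strongly, 42 of them among the 25% of genes with the highest mean level, of which 24.9% were called higher with a median change of 0.13; of those 42 genes 35 were called higher, with a median of 0.71. In 35 of the 54 genes all 6 ANIT arrays lay above all 6 vehicle arrays, which held for 5.54% of all genes. The count of 0 called lower goes with an adjusted test; with the level of spiked controls as a covariate, alone or with the beta-actin ratio, or after quantile normalization, 1 gene, Copg2, was called lower.

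**Figure D1:**
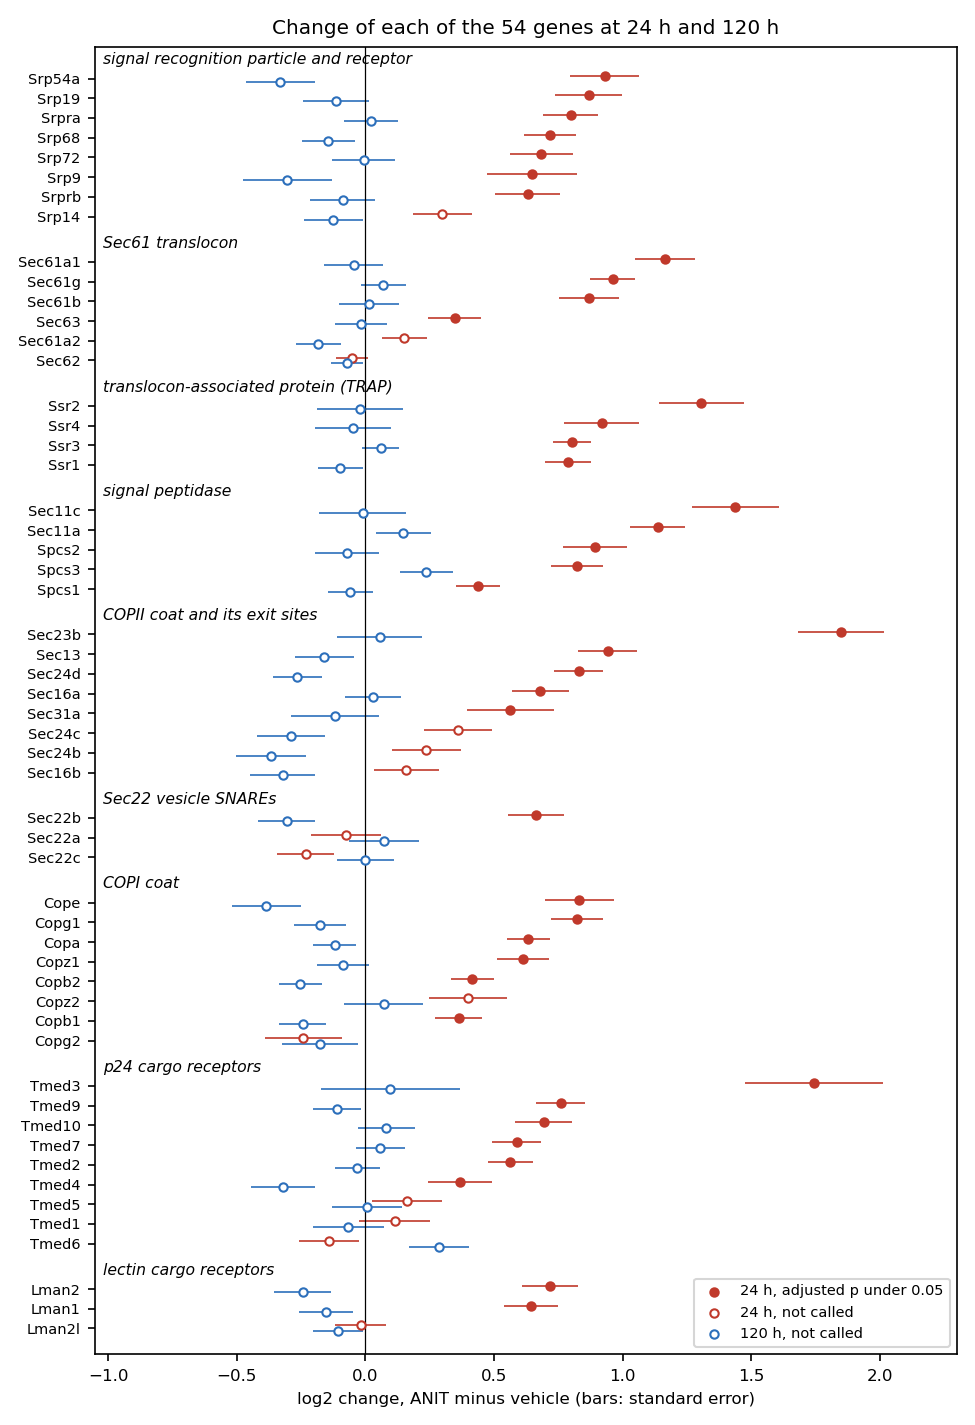
The log2 change of each of the 54 genes (ANIT minus vehicle, x axis, bars are the standard error) at 24 h in red and at 120 h in blue, grouped by role, with filled symbols for an adjusted p under 0.05. At 24 h 40 genes carry filled symbols, all to the right of 0; at 120 h no gene does, and the changes lie between -0.39 and 0.29.

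Some array-wide measures moved with the groups. The beta-actin 3'/5' log2 ratio, a measure of how far the copied RNA is complete, was 3.12 ± 0.07 in ANIT and 2.84 ± 0.05 in vehicle livers at 24 h (SD, n = 6 each; two-sided exact permutation p = 0.00216, adjusted 0.0173 over 8 tests), and the groups did not overlap. The GAPDH 3'/5' log2 ratio moved the other way, with 1.62 ± 0.04 in ANIT and 1.71 ± 0.08 in vehicle livers (exact permutation p = 0.0476, adjusted 0.190). The mean level of 9 spiked control probe sets was 10.8 ± 0.2 in ANIT and 11.2 ± 0.4 in vehicle livers (exact permutation p = 0.0909, adjusted 0.242). The 6 arrays with the narrowest spread of values were 3 vehicle arrays at 24 h (replicates 3, 4 and 5) and 3 ANIT arrays at 120 h (replicates 4, 5 and 6), and the labels give no batch. With the beta-actin ratio as a covariate 31 of the 54 genes were called higher at 24 h, with a median change of 0.62, while calls over all genes went from 2451 to 907. Without the 6 narrow arrays 35 were called higher, with a median of 0.54. The narrow arrays alone hold no pair of groups of 1 time, so no value within them could be had. The part of these measures in the changes was not tested beyond these fits.

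Array by array the shift at 24 h was common to all treated rats. The median over the 54 genes of an array's value minus the vehicle mean lay between 0.45 and 0.84 on the 6 ANIT arrays, and between -0.18 and 0.23 on the 6 vehicle arrays. Between 46 and 50 of the 54 genes stood above their vehicle mean on each ANIT array. On the vehicle arrays of 24 h it was between 6 and 49, so this count alone does not set the ANIT arrays apart. Among the vehicle arrays the 3 narrow ones lay lowest, at -0.18 to -0.05, and the other 3 at 0.02 to 0.23.

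**Figure D2:**
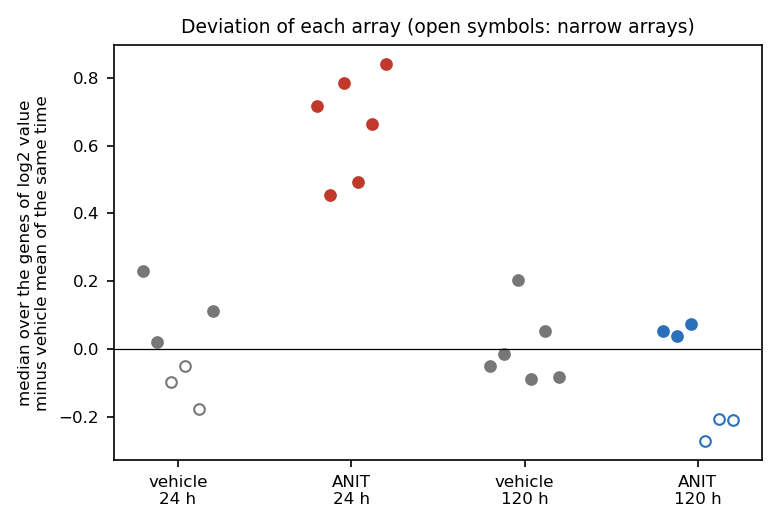
Median over the 54 genes of the log2 value minus the vehicle mean of the same time (y axis) for each array, by group (x axis), with the 6 narrow arrays as open symbols. The ANIT arrays at 24 h lie at 0.45 to 0.84 and stand above every other array; at 120 h the narrow ANIT arrays lie at -0.27 to -0.21 and the other 3 at 0.04 to 0.07.

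Targeting to the ER membrane came first in the order of the pathway, and 7 of the 8 SRP and SRP receptor genes rose at 24 h (median 0.70). Srp54a, which encodes the GTPase subunit that binds signal peptides, read 7.34, 7.84 and 8.00 (lowest, median and highest) in vehicle livers and 8.36, 8.71 and 8.81 in ANIT livers. The groups did not overlap, and the change was 0.93 ± 0.13 (SE), a fold of 1.91 (adjusted p = 1.52e-05). Srpra, the receptor subunit that docks the particle, read 9.95, 10.16 and 10.52 in vehicle and 10.75, 11.02 and 11.27 in ANIT livers, again without overlap. It rose by 0.80 ± 0.11 (adjusted p = 5.19e-06). Srp19, Srp68, Srp72, Srp9 and Srprb rose by 0.63 to 0.87. Srp14, which with SRP9 forms the domain that pauses translation, had a change of 0.30 ± 0.11 and was not called (adjusted p = 0.0688), although its groups did not overlap.

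The channel itself showed an uneven pattern, with 4 of 6 Sec61 genes higher (median 0.61). Sec61a1, the pore-forming alpha subunit, read 8.96, 9.18 and 9.42 in vehicle and 9.99, 10.47 and 10.55 in ANIT livers. The lowest ANIT value stood well above the highest vehicle value, and the change was 1.16 ± 0.12, a fold of 2.24 (adjusted p = 7.49e-08). Sec61g, the small gamma subunit, read 10.66, 10.71 and 10.89 against 11.48, 11.69 and 11.95, and rose by 0.96 ± 0.09 (adjusted p = 1.98e-08). Sec61b, the beta subunit, read 9.82, 10.15 and 10.22 against 10.72, 11.00 and 11.13, and rose by 0.87 ± 0.12 (adjusted p = 5.16e-06). Neither pair of groups overlapped. Sec63, an accessory J-protein that recruits the chaperone BiP, rose by 0.35 ± 0.10 (adjusted p = 0.0173). Its partner Sec62, which serves post-translational translocation and ER-phagy, read 11.67, 11.76 and 11.81 in vehicle and 11.59, 11.71 and 11.75 in ANIT livers. These ranges overlapped, and the change was -0.05 ± 0.06 (adjusted p = 0.588). The probe set of Sec61a1 with the dimmest signal (mean 3.90) had a change of -0.16, unlike the one used.

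All 4 TRAP genes rose (median 0.86). Ssr2, the beta subunit, read 8.10, 8.37 and 8.68 in vehicle and 9.31, 9.75 and 9.97 in ANIT livers. Every ANIT value was above every vehicle value, and the change was 1.31 ± 0.17, a fold of 2.47 (adjusted p = 2.99e-06). Ssr4, the delta subunit, read 9.48, 9.67 and 9.98 against 10.32, 10.67 and 10.93, and rose by 0.92 ± 0.15 (adjusted p = 5.89e-05). Ssr3, the gamma subunit, read 10.68, 10.90 and 11.05 against 11.51, 11.69 and 11.88, and rose by 0.80 ± 0.07 (adjusted p = 2.02e-08). Both were without overlap, and Ssr1, the alpha subunit, rose by 0.79 ± 0.09.

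All 5 signal peptidase genes rose as well (median 0.89). Sec11c, 1 of the 2 catalytic subunits, read 7.55, 8.03 and 8.52 in vehicle and 8.96, 9.47 and 9.98 in ANIT livers. The change was 1.44 ± 0.17, a fold of 2.71 (adjusted p = 8.55e-07), with no overlap. Sec11a, the other catalytic subunit, read 8.84, 9.06 and 9.29 against 9.89, 10.23 and 10.47, and rose by 1.14 ± 0.11, a fold of 2.20 (adjusted p = 3.18e-08). Of the accessory subunits, Spcs2 read 8.23, 8.50 and 8.68 against 9.22, 9.44 and 9.51, and rose by 0.89 ± 0.12 (adjusted p = 9.15e-06). Spcs1 read 10.32, 10.52 and 10.59 against 10.78, 10.90 and 11.06, and rose by 0.44 ± 0.09 (adjusted p = 0.000659). None of these pairs of groups overlapped. Spcs3 rose by 0.82 ± 0.10.

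Of the 8 COPII genes 5 rose (median 0.62), and the inner coat gene Sec23b had the largest change of all 54 genes. Sec23b, which stimulates GTP hydrolysis by SAR1 in the coat, read 7.14, 7.63 and 8.21 in vehicle and 9.31, 9.46 and 9.91 in ANIT livers. A gap separated the groups, and the change was 1.85 ± 0.17, a fold of 3.60 (adjusted p = 1.98e-08). Sec13, which builds the outer cage with SEC31, read 9.09, 9.29 and 9.41 against 9.95, 10.31 and 10.43, and rose by 0.94 ± 0.11 (adjusted p = 1.48e-06) without overlap. The cargo adaptor Sec24d rose by 0.83 ± 0.09 and Sec16a by 0.68 ± 0.11. The outer coat gene Sec31a rose by 0.56 ± 0.17 (adjusted p = 0.0211), but lost the call without any 1 of vehicle replicates 3, 4 and 5 or ANIT replicates 1 and 6 of 24 h. Sec24c (0.36, adjusted p = 0.0587), Sec24b (0.24) and Sec16b (0.16) were not called. Among the Sec22 genes, Sec22b encodes a SNARE that fuses ER and Golgi vesicles. It read 9.02, 9.33 and 9.43 against 9.75, 9.92 and 10.34 and rose by 0.66 ± 0.11 (adjusted p = 9.55e-05) without overlap. Sec22a (-0.07) and Sec22c (-0.23) were not called.

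Of the 8 COPI genes 6 rose (median 0.51). Copb2 read 9.68, 9.69 and 9.94 in vehicle and 9.91, 10.21 and 10.30 in ANIT livers. The lowest ANIT value fell just under the highest vehicle value, and the change was 0.42 ± 0.08, a fold of 1.33 (adjusted p = 0.000877). With the beta-actin ratio as a covariate Copb2 was not called, and neither were Copb1, Lman1, Sec31a, Sec63, Spcs1, Srp9, Srprb and Tmed4. Cope, Copg1, Copa, Copz1 and Copb1 rose by 0.36 to 0.83. Copz2 (0.40, adjusted p = 0.0712) and Copg2 (-0.24, adjusted p = 0.278) were not called.

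The cargo receptors of the p24 family divided, with 6 of 9 higher (median 0.56). Tmed3 read 5.74, 6.13 and 6.79 in vehicle and 7.02, 8.12 and 8.54 in ANIT livers. Its 6 ANIT values spread widely but stayed above all vehicle values, and the change was 1.74 ± 0.27, a fold of 3.35 (adjusted p = 3.71e-05). Tmed2, a core member of the p24 complexes, read 11.01, 11.14 and 11.37 against 11.53, 11.74 and 11.96, and rose by 0.56 ± 0.09 (adjusted p = 3.87e-05) without overlap. Tmed9, Tmed10 and Tmed7 rose by 0.59 to 0.76. Tmed4 rose by 0.37 ± 0.13 (adjusted p = 0.0417) and was the least stable call, lost under 16 of 34 alternative settings, among them leaving out any 1 of vehicle replicates 3 to 6 or of ANIT replicates 1 and 3 to 6 of 24 h. Tmed5 (0.16), Tmed1 (0.11) and Tmed6 (-0.14) were not called. Of the lectins, which bind the sugar chains of glycoprotein cargo, Lman2 read 8.06, 8.49 and 8.69 against 8.95, 9.21 and 9.34 and rose by 0.72 ± 0.11 (adjusted p = 3.07e-05) without overlap. Lman1, the ERGIC-53 receptor of coagulation factors V and VIII, rose by 0.64 ± 0.11, and Lman2l (-0.02) was not called.

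**Figure D3:**
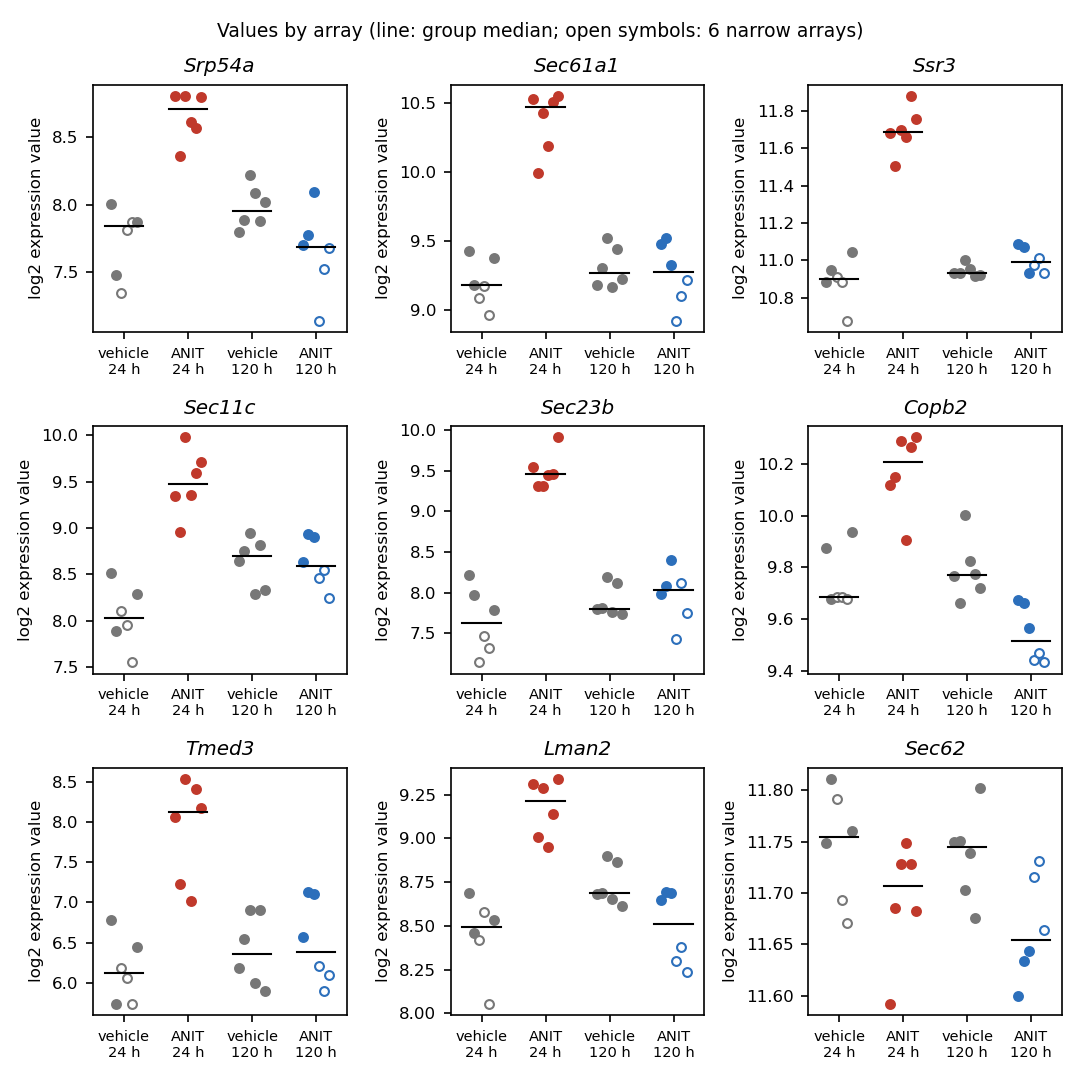
Log2 expression values (y axis) of 9 genes on each of the 24 arrays by group (x axis), with lines at the group medians and open symbols for the 6 narrow arrays. In 7 of the 9 panels every ANIT value at 24 h lies above every vehicle value of that time; the ranges of Copb2 and Sec62 overlap.

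The rise was 1.5-fold or more in 33 of the 40 genes called, and 2-fold or more in 6, namely Sec23b, Tmed3, Sec11c, Ssr2, Sec61a1 and Sec11a. The smallest called change was 0.35, that of Sec63. The 14 genes not called had changes from -0.24 to 0.40. All 5 genes with a mean level under the median of all genes (Sec22a, Sec22c, Tmed1, Tmed5 and Tmed6) were among those 14. Of 26 further probe sets of these genes 17 were called higher and 0 lower, and 22 were above 0. These calls came from a separate fit, adjusted over all 19068 single-gene probe sets. The share of all probe sets called in it is not given here; in the fit of genes 12.9% were called higher.

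Several of the genes not called are close relatives of genes that rose. The change of 1 relative minus that of the other was computed per rat; the pairs were chosen with these values known, so the differences are a description without a test. At 24 h Sec61a1 rose by 1.01 ± 0.10 (SE) more than Sec61a2, its close homologue. Copg1 exceeded Copg2 by 1.06 ± 0.16 and Lman2 exceeded Lman2l by 0.74 ± 0.12. Sec22b exceeded Sec22a by 0.74 ± 0.14 and Sec22c by 0.90 ± 0.14, but both relatives read below the median level of all genes, where array values can understate a change. In each of these pairs, and for Sec24d over Sec24b (0.59 ± 0.09), the difference on all 6 ANIT arrays lay above that on all 6 vehicle arrays. Sec24d exceeded Sec24c by 0.47 ± 0.14 and Sec16a exceeded Sec16b by 0.52 ± 0.11, with some overlap. For Copz1 against Copz2 the difference was 0.21 ± 0.16, and Sec11a rose by 0.30 ± 0.15 less than Sec11c, both with overlapping groups.

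**Figure D4:**
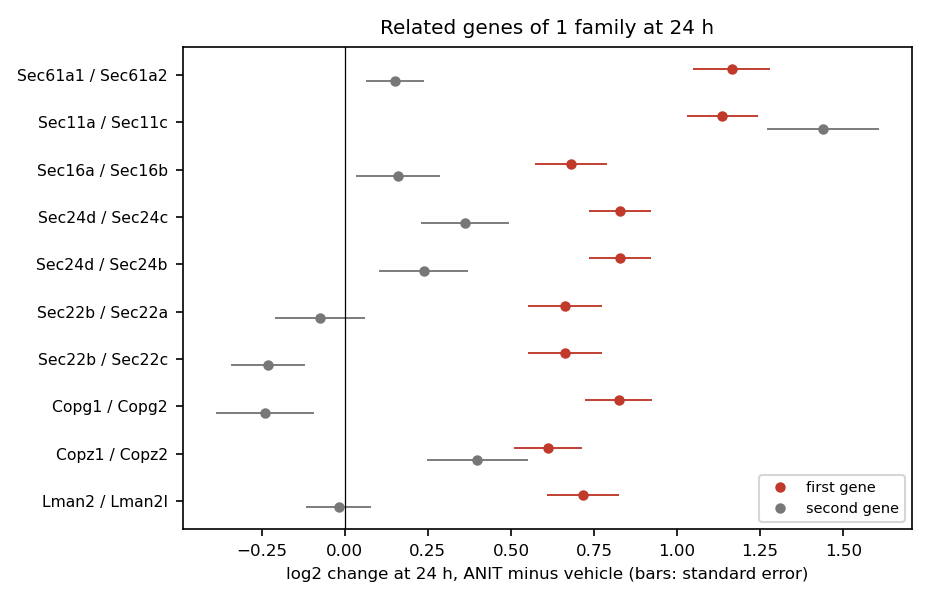
Log2 change at 24 h (x axis, ANIT minus vehicle, bars are the standard error) of 10 pairs of related genes, the first gene in red and the second in grey. The first gene lies between 0.61 and 1.16 in every pair; the second lies between -0.24 and 0.40 except Sec11c at 1.44.

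Genes that work beside this machinery were read from lists drawn up with earlier results known. For comparison, 12.9% of all genes were called higher at 24 h, and 24.9% of the 25% of genes with the highest level. Of 11 oligosaccharyltransferase genes, which attach sugar chains as proteins enter the ER, 9 rose at 24 h and 0 fell (median 0.67), led by Tmem258 at 0.90, Dad1 at 0.82 and Rpn1 at 0.79. Of 18 other translocation factors 6 rose (median 0.31), with the ER ATPase Hspa13 at 1.64, and the membrane insertion subunits Emc6 at 0.53 and Emc4 at 0.36. Of 14 other COPII and exit factors 7 rose (median 0.42), with the cargo receptor Surf4 at 0.88, Yipf5 at 0.82 and the LMAN1 partner Mcfd2 at 0.67. Of 12 other COPI, KDEL receptor and Arf genes 7 rose (median 0.44), with the COPI uncoating factor Arfgap3 at 1.45, the retrieval receptor Kdelr2 at 0.85 and the GTPase Arf4 at 0.67. Of 22 tethers and SNAREs 11 rose (median 0.43), with the SNARE regulator Scfd1 at 1.38, Stx5 at 0.83 and the tether Uso1 at 0.74. None of these 4 latter lists held a gene called lower.

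Genes known to regulate the secretory route or the unfolded protein response did not move as 1 group. Over all genes 12.9% were called higher at 24 h and 18.2% in either direction. Of 11 regulators 6 rose and 1 fell at 24 h, led by Atf4 at 1.03, Creb3l1 at 0.89 and Creb3 at 0.87; the gene that fell, named after its value was seen, was Creb3l3 at -0.42. Xbp1 read 9.86, 10.60 and 10.89 in vehicle and 10.47, 10.52 and 11.06 in ANIT livers. The ranges overlapped, and its change of 0.21 ± 0.18 was not called (adjusted p = 0.446); the probe set does not tell its spliced form from the unspliced one. Hspa5, the ER chaperone BiP, read 10.91, 10.97 and 11.26 in vehicle and 11.68, 11.79 and 12.17 in ANIT livers and rose by 0.82 ± 0.10 (adjusted p = 1.55e-06) without overlap. Of 19 genes of secreted liver proteins 7 rose and 2 fell, Apoa2 at -0.35 and Ahsg at -0.27, named after their values were seen (median -0.01). Alb (albumin) had a change of -0.14 ± 0.07 (adjusted p = 0.158), from 13.20, 13.26 and 13.31 to 12.96, 13.15 and 13.21. The acute phase gene Lcn2 went from 5.03, 6.06 and 7.48 to 9.96, 11.56 and 11.85, a rise of 5.33 ± 0.36 (adjusted p = 2.82e-10), and A2m rose by 3.95 and Orm1 by 0.95.

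Markers of cells with much secretory ER were read beside these changes. Over all genes 12.9% were called higher at 24 h and 18.2% in either direction, and 2.02% were called at 120 h. Of 9 hepatocyte markers 2 rose, Tat at 0.74 and Hnf4a at 0.31, and 0 fell at 24 h, and their mean level per array ran from 11.7 to 11.9 in vehicle and from 11.8 to 12.1 in ANIT livers. Of 9 plasma cell and B cell markers 1 rose, Fkbp11 at 1.44, itself an ER foldase, and 1 fell, Cd79b at -0.32, with mean levels of 5.55 to 5.70 and 5.57 to 5.73. Of 9 pancreatic acinar markers 1 rose, Cpa1 at 0.31, and 1 fell, Cela1 at -0.82, with mean levels of 5.11 to 5.29 and 4.94 to 5.14. Markers of other liver cells were read too. Of 7 neutrophil markers 2 rose, S100a8 at 1.82 and S100a9 at 0.87, with mean levels of 4.35 to 5.04 in vehicle and 4.86 to 5.07 in ANIT livers. The others, Camp, Csf3r, Cxcr2, Itgam and Mmp8, had changes of -0.07 to 0.03. Of 7 macrophage markers 2 rose, Lyz2 at 0.54 and Cd163 at 0.38, with mean levels of 8.43 to 8.69 and 8.61 to 8.85. Of 11 stellate cell markers 2 fell, Lrat at -1.25 and Reln at -0.52, with mean levels of 6.49 to 6.91 and 6.31 to 6.997. Of 6 endothelial markers Lyve1 rose by 0.54 and Stab2 (-0.50) and Kdr (-0.35) fell, with mean levels of 8.20 to 8.82 and 8.12 to 8.54. None of 7 cholangiocyte markers was called at 24 h, nor had any an unadjusted p under 0.05. At 120 h Krt19 (0.73) and Cftr (0.49) of the cholangiocyte markers and Cd163 (0.43) were called higher and Sdc1 of the plasma cell markers lower (-0.62), and none of the other markers was called. Sdc1 and Cela1 lay at percentiles 94.6 and 76.9 of mean level among all genes, unlike most markers of their lists. Which cells gave their signal was not tested. Most plasma cell, B cell, acinar, neutrophil and cholangiocyte markers read below the median level of all genes, where array values can understate a change. The part of cell composition in the changes was not tested.

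At 120 h the machinery stood close to the vehicle level. None of the 54 genes was called by limma in either direction, against 2.02% of all genes, and 14 had an unadjusted p under 0.05 (25.9%, against 13.9% of all genes). The smallest adjusted p was 0.141. Changes ran from -0.39 (Cope) to 0.29 (Tmed6), 38 of the 54 were below 0, and the median was -0.08, against -0.10 for the 25% of genes with the highest level. By role the medians were lowest for COPII (-0.21) and COPI (-0.18) genes and highest for p24 genes (0.01), named after their values were seen. Of 8 COPII genes 6 were below 0 and 4 had an unadjusted p under 0.05 in limma. Of 8 COPI genes 7 were below 0 and 3 had such a p. Only Sec24b had groups that did not overlap, with ANIT below vehicle, against 2.14% of all genes. With the spiked control level as a covariate Cope was called lower, with the beta-actin ratio added Cope and Sec24b were, and after quantile normalization Spcs3 was called higher. The 3 narrow ANIT arrays had medians of -0.27 to -0.21 over the 54 genes and the other 3 had 0.04 to 0.07, and without the 6 narrow arrays the median change was 0.08.

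The genes with the largest rises at 24 h had overlapping groups at 120 h. Sec23b read 7.74, 7.80 and 8.19 in vehicle and 7.43, 8.03 and 8.40 in ANIT livers, a change of 0.06 ± 0.17. Tmed3 read 5.90, 6.36 and 6.91 against 5.90, 6.39 and 7.13, a change of 0.10 ± 0.27. Sec11c read 8.29, 8.70 and 8.94 against 8.24, 8.59 and 8.94, a change of -0.01 ± 0.17. In all 3 the ANIT median stood within the vehicle range. Ssr2 read 8.44, 8.56 and 8.96 against 8.16, 8.67 and 9.02 (-0.02 ± 0.17), Sec61a1 9.16, 9.26 and 9.52 against 8.92, 9.27 and 9.52 (-0.05 ± 0.12). Sec11a read 9.07, 9.10 and 9.33 against 9.11, 9.29 and 9.56 (0.15 ± 0.11). Their groups overlapped too, and none was called.

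Among the translocation genes Sec61g read 10.71, 10.77 and 10.90 in vehicle and 10.68, 10.81 and 11.07 in ANIT livers at 120 h. Sec61b read 9.89, 10.17 and 10.43 against 9.85, 10.22 and 10.55. Sec62 read 11.68, 11.74 and 11.80 against 11.60, 11.65 and 11.73. The 3 channel genes had changes of 0.07 ± 0.09, 0.01 ± 0.12 and -0.07 ± 0.06. Srpra read 10.20, 10.28 and 10.37 against 10.15, 10.26 and 10.54, and Srp54a 7.79, 7.95 and 8.22 against 7.14, 7.69 and 8.10. The receptor gene had a change of 0.02 ± 0.11 and Srp54a of -0.33 ± 0.13 (adjusted p = 0.251), its ANIT values reaching below the vehicle range. Ssr3 read 10.91, 10.93 and 11.00 against 10.93, 10.99 and 11.09, and Ssr4 9.85, 9.98 and 10.22 against 9.41, 9.91 and 10.44. Spcs1 read 10.53, 10.59 and 10.78 against 10.36, 10.55 and 10.78, and Spcs2 8.61, 8.72 and 9.03 against 8.37, 8.70 and 9.11. All 4 pairs of groups overlapped, with changes between -0.07 and 0.06.

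Among the transport genes Sec13 read 9.11, 9.18 and 9.58 in vehicle and 8.79, 9.14 and 9.38 in ANIT livers at 120 h, a change of -0.16 ± 0.11. Sec22b read 9.14, 9.44 and 9.71 against 8.93, 9.15 and 9.32, a change of -0.31 ± 0.11 (adjusted p = 0.176). Copb2 read 9.66, 9.77 and 10.00 against 9.43, 9.52 and 9.67, a change of -0.25 ± 0.08 (adjusted p = 0.141). The 2 groups of Copb2 met only at their edges. Tmed2 read 11.16, 11.24 and 11.30 against 11.06, 11.19 and 11.35 (-0.03 ± 0.09), and Lman2 8.62, 8.69 and 8.90 against 8.24, 8.51 and 8.69 (-0.24 ± 0.11, adjusted p = 0.313). No gene of the oligosaccharyltransferase, translocation, COPII, COPI, tether or regulator lists was called at 120 h. Hspa5 (0.14 ± 0.10), Xbp1 (0.08 ± 0.18) and Alb (0.00 ± 0.07) were not called, while Lcn2 was still higher by 1.72 ± 0.36 (adjusted p = 0.0106).

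The change of the ANIT effect between the times was tested directly as the effect at 120 h minus that at 24 h. It was called lower in 40 of the 54 genes and higher in 0, with a median of -0.71, against 11.0% of all genes called lower and a median of -0.02. Among the 25% of genes with the highest level 23.2% were called lower, with a median of -0.22. Of the 40 genes that rose at 24 h, 38 had a called difference; Sec31a (-0.68, adjusted p = 0.0580) and Sec63 (-0.36, adjusted p = 0.0881) did not. Sec24b and Sec24c had one without a call at 24 h. The largest differences were those of Sec23b (-1.79 ± 0.24, adjusted p = 1.59e-05), Tmed3 (-1.65 ± 0.38, 0.00461), Sec11c (-1.45 ± 0.24, 0.000208) and Ssr2 (-1.33 ± 0.24, 0.000442). With the beta-actin ratio as a covariate 19 genes were called lower, with a median difference of -0.66, and without the 6 narrow arrays 22 were, with a median of -0.50. Over all genes 1924 differences were called in either direction, 438 with the beta-actin ratio and 852 without the narrow arrays. Hspa5 fell back by a difference of -0.67 ± 0.14 and Lcn2 by -3.60 ± 0.51, and Xbp1 (-0.13 ± 0.25) and Alb (0.14 ± 0.09) were not called.

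Vehicle livers of the 2 times were compared as the background of that contrast. At 120 h against 24 h limma called 0 of the 54 genes, and 1 of all 13438 genes (0.00744%). An unadjusted p under 0.05 was found for 8 of the 54 genes (14.8%) and for 12.2% of all genes. The median of the 54 genes was 0.14, that of all genes 0.04 and that of the 25% with the highest level 0.12. Sec11c had the largest change, 0.58, and was called only without vehicle replicate 1 of 24 h.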

How the data were processed

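Per the labels' protocols, total RNA of liver was amplified to cDNA, labelled with biotin and hybridised, 1 rat per array. The deposited values are log2 expression values per probe set, which the authors made with RMA and Partek, per the submitters' processing notes; neither version nor settings were stated there. The table held 31139 probe sets on 24 arrays, with values from 2.34 to 13.5, used as deposited. Depth does not apply, and the 6 arrays per group limit precision.

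Genes came from the platform annotation: 19068 probe sets named 1 gene, 573 several and 11498 none. The highest-mean probe set stood for each of 13438 genes. Symbols were checked by Entrez identifier against RefSeq names of assembly GRCr8, which renamed 0; 79 were not matched. Levels are not compared between probe sets.

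Group means were estimated in 1 fit of all arrays with limma 3.58.1 (lmFit, eBayes) in R 4.3.3, with Benjamini-Hochberg adjustment over all genes and no minimum fold. It was tested on simulated data. Array measures were compared with exact permutation tests in scipy 1.17.1, and figures drawn with matplotlib 3.10.9. Alternatives were covariates, scaling, probe choice, filters, sets of arrays and left-out arrays. Groups came from the labels. Replicate numbers follow accession order and pair nothing.

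Described in full were the 12 largest called changes at 24 h, the 4 largest called differences, any call at 120 h or fall at 24 h (there were none), and the strongest-read gene of each role. Of each other list up to 3 genes with the smallest p were named, and Hspa5, Xbp1, Lcn2 and Alb throughout. Other genes were named to account for every member. Members, lists and relatives were chosen with earlier results of these data known. Protein sequences were not used here.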

Additional observations from a re-analysis of the deposited data

Results flagged for a closer look

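No single array stood apart in any of the 80 groups checked, 20 genes in 4 groups. The check set the gap between the outermost array and the next against the range of the group. It can flag only a single isolated array, not a split such as that between narrow and other arrays. The ANIT effect differed between the times, by limma's test of the difference itself, in 19 of those 20 genes, all but Sec62. Most of the 20 were chosen for large changes at 24 h or large differences, so this count is a description; over all 54 genes 40 were called lower, against 11.0% of all genes. As the log2 effect at 120 h minus that at 24 h, the largest of the 19 were Sec23b at -1.79, Tmed3 at -1.65 and Sec11c at -1.45. Ssr2 at -1.33, Srp54a at -1.26, Sec61a1 at -1.21 and Sec13 at -1.10 followed. Below these in size lay Sec11a at -0.99, Sec22b at -0.97, Ssr4 at -0.97, Lman2 at -0.96, Spcs2 at -0.96, Sec61g at -0.89 and Sec61b at -0.86. The remaining differences were Srpra at -0.78, Ssr3 at -0.74, Copb2 at -0.67, Tmed2 at -0.59 and Spcs1 at -0.50.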

How the results depend on the processing

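The 24 h count of 40 genes called higher lay between 31 and 43 under the 34 alternatives, and all 40 stayed above 0 in every one. Of the 40, 31 were called under each alternative, and the 9 that lost the call at least once were Tmed4, Sec31a, Sec63, Copb1, Srp9, Srprb, Copb2, Lman1 and Spcs1. Leaving out each array in turn gave 38 to 43 genes at 24 h, 0 to 0 at 120 h, 39 to 46 for the difference between times, and 0 to 1 between the vehicle groups. At 120 h the count was 1 with the control level as a covariate, 2 with both covariates and 1 after quantile normalization. The difference was called in 19 genes with the beta-actin ratio as a covariate (median -0.66) and in 22 without the 6 narrow arrays (median -0.50), against a median of -0.71 in the reported fit; the latter holds fewer arrays, and the cause of the former was not tested. Over all genes 2451 were called at 24 h, 907 with the beta-actin ratio and 1554 without the narrow arrays. For the difference between times these all-gene counts were 1924, 438 and 852. Shifting arrays to a common median moved the all-gene median difference between times to -0.13, and the median of the 54 genes to -0.82. Of the 20 genes given in full, 2 lost the 24 h call and 8 the difference with the beta-actin ratio, and 5 lost the difference without the narrow arrays. Dim signal limits 5 genes under the median level. No paired analysis was possible because the labels give the groups no shared replicate numbers.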
